A study of Mus musculus with 4 samples.

Results

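The natriuretic peptide system was examined in cardiac Sca-1 cells at 7 genes, the peptide precursors Nppa, Nppb and Nppc, the receptors Npr1, Npr2 and Npr3 and the processing enzyme Corin. Members were chosen by gene symbol, as every probe set of the Affymetrix Mouse 430 2.0 array that is annotated to 1 of these genes. This gave 9 of 45037 probe sets, 3 of them for Npr3 and 1 for each of the other genes, and none was shared with another gene. Sca-1 cells, a resident population sorted with magnetic beads for a surface antigen used to enrich progenitor cells, were taken from hearts of double-transgenic mice that overexpress CyclinT1 and Gαq (Cyc) and of wildtype littermates (Wt). All mice were 6 weeks old and on the FVB background, and animals of either sex were used. The Cyc mice develop heart failure, and both transgenes are driven by the αMHC promoter, a promoter of cardiomyocytes. Each of the 4 arrays held RNA of 1 pool of freshly isolated cells from 2 to 3 hearts, with 2 pools per genotype, numbered 1 and 2 in the labels.

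Natriuretic peptides are hormones of heart and vessel. Atrial natriuretic peptide, encoded by Nppa, and brain natriuretic peptide, encoded by Nppb, are made mainly by cardiomyocytes, and their genes are textbook markers of stretch, hypertrophy and heart failure, while C-type natriuretic peptide, encoded by Nppc, is a product of endothelium and other tissues. Corin is a membrane protease that cleaves the atrial precursor, Npr1 and Npr2 are guanylyl cyclases that answer their ligands with cyclic GMP, and Npr3 lacks the cyclase and removes the peptides from the circulation.

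The deposited values are probe set intensities in arbitrary units, and an intensity under 50 was treated as near background. At this limit 4 and 5 of the 9 member probe sets were read in Cyc pools 1 and 2, and 3 and 4 in Wt pools 1 and 2. Among all probe sets the share read was 41% and 47.6% in the Cyc pools and 43.2% and 44.9% in the Wt pools. Probe sets read at 50 or more in at least 2 pools were tested, which were 20680 in all (45.9%) and 5 of the 9 here, those of Nppa, Nppb, Npr1 and Npr2 and 1 for Npr3. Nppc, Corin and 2 probe sets for Npr3 were not tested. Differences are Cyc minus Wt on the log2 scale after 16 had been added, which understates changes of dim genes. Pools with the same number were also set against each other as experiments 1 and 2, since control transcripts added before labelling had median intensities of 258.8 in Cyc and 231.9 in Wt pool 1 but of -0.9 and 0.3 in Cyc and Wt pool 2. With 2 pools per genotype an exact permutation test of a single gene cannot give a two-sided p under 0.333, and precision is limited by there being 4 arrays.

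**Figure D1:**
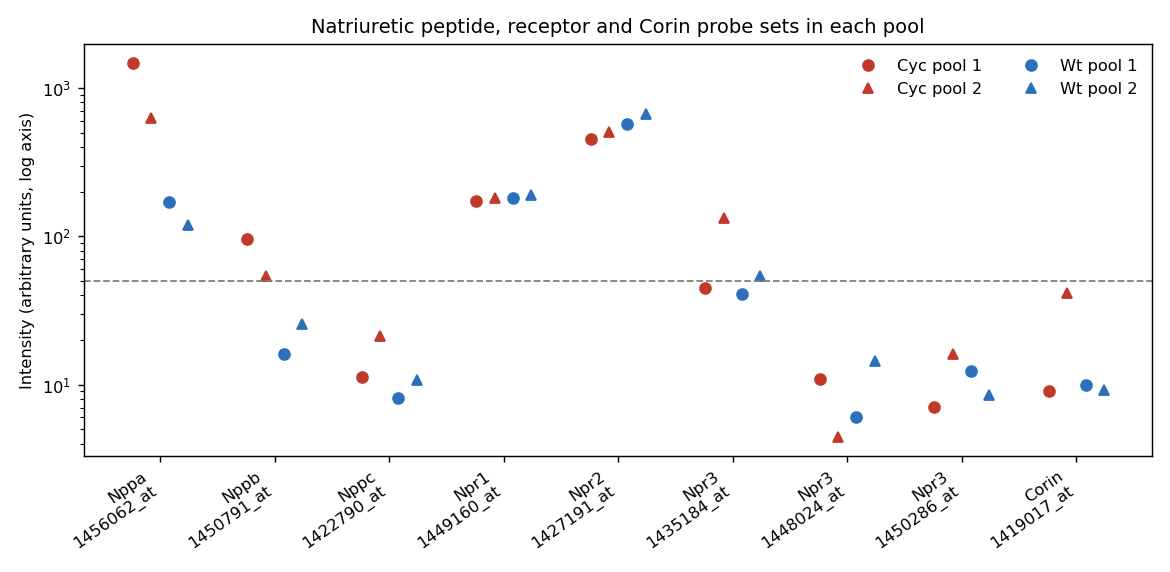
Intensity (log axis, arbitrary units) of the 9 member probe sets in each of the 4 pools, Cyc red and Wt blue, circles for pool 1 and triangles for pool 2, and a dashed line at 50. The Cyc pools sit above the Wt pools for Nppa and Nppb, the 4 pools of Npr1 lie between 172.2 and 189.1, and Corin, Nppc and 2 of the 3 Npr3 probe sets stay below the line.

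Of the 5 tested members, Nppa was higher in Cyc cells with all pools above background, Nppb passed the same thresholds against Wt values near background, and no member was lower. The thresholds are those of the study, at least 2-fold with p under 0.05 before adjustment. Of all tested probe sets 0.735% passed in the higher direction. The adjusted p was under 0.05 for none of the 20680 probe sets in limma (0%), where 412 had an unadjusted p under 0.05, and an ordinary equal-variance test, probe set by probe set, gave 644 before adjustment and none after it. Nppa and Nppb did not pass in that test, with unadjusted p of 0.0567 and 0.0804. The study itself names Nppa as higher on these arrays, so its direction here adds no separate evidence.

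Nppa measured 1481.9 and 627.7 in the Cyc pools, against 171.5 and 119.5 in the Wt pools (probe set 1456062_at). Every pool was thus read well above 50, the Wt pools included, and the lower Cyc pool lay above the higher Wt pool, a separation in this direction that 15.1% of all tested probe sets showed. The means were 1055 ± 604 in Cyc and 145 ± 36.8 in Wt cells (SD, n = 2 pools each). Nppa rose by 2.62 on the log2 scale with a standard error of 0.48 and a 95% confidence interval from 1.36 to 3.88, a 6.16-fold change (limma, adjusted p = 1). The Cyc pool was 8.64 times as bright as the Wt pool in experiment 1 and 5.25 times in experiment 2. These log2 differences of 3.0 and 2.25 were the number 5 and number 94 of 20680 from the top, and the fitted change was number 10. On this scale, with 16 added, the difference was at least 2-fold in both experiments, as for 0.295% of all tested probe sets. Cyc pool 1 was 2.36 times as bright as Cyc pool 2, and the estimate was 2.01 without Cyc pool 1 and 3.23 without Cyc pool 2. Where a pool is left out, here and for other genes, the lone pool of its genotype is assumed to vary like the pools of the other genotype, so that such a fit shows how far the estimate moves and is weak support for a call. With the experiment as a block the standard error was 0.25 and the adjusted p 0.172 (limma).

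Nppb was read above 50 in the Cyc pools alone, at 96.0 and 54.1 against 16 and 25.5 in the Wt pools (probe set 1450791_at). Nppb entered the test only through the Cyc pools, which fixed that its genotypes could not overlap. As both Wt pools lay near background, the intensity was at least 1.44-fold higher in Cyc cells, with a fitted log2 difference of 1.28 and a standard error of 0.34 (95% confidence interval 0.40 to 2.16; limma, adjusted p = 1). Against the limit of 50 the Cyc pool was at least 1.92-fold brighter in experiment 1 and at least 1.08-fold in experiment 2, where it lay only just above that limit. These bounds stay under the 2-fold threshold, which Nppb passed only by its fitted difference. As for Nppa, Cyc pool 1 was the brighter of the Cyc pools, by 1.78 times. The call on Nppb rested on single pools, since the difference was 0.94 without Cyc pool 1, below 2-fold, and 1.09 without Wt pool 1, with an unadjusted limma p of 0.0843. It also missed the fold threshold when 50 in place of 16 was added before log2, at 0.80.

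Nppc measured 11.2 and 21.2 in the Cyc pools, against 8.1 and 10.7 in the Wt pools (probe set 1422790_at). All 4 values are near background, so no difference in this peptide could be read from the arrays.

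**Figure D2:**
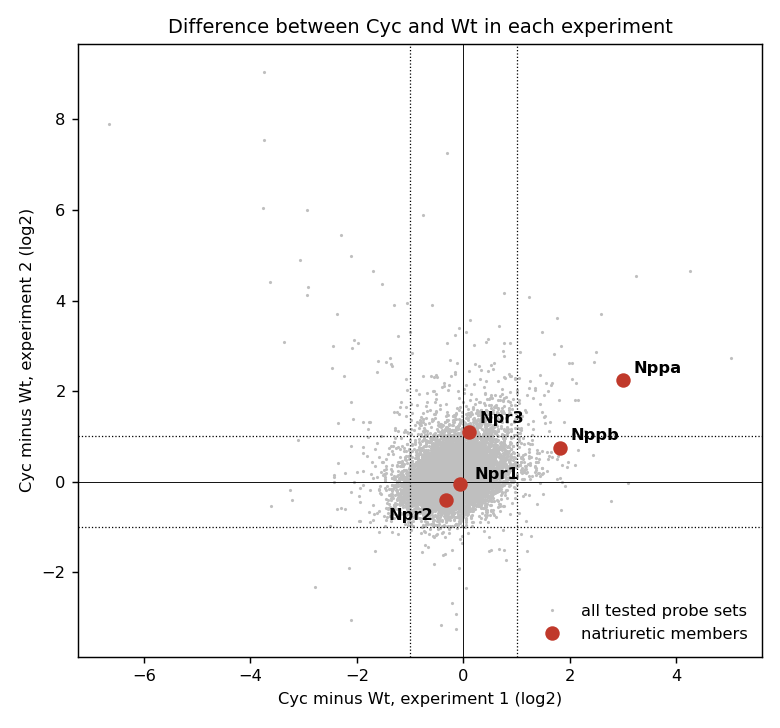
Difference between the Cyc and the Wt pool of experiment 1 (horizontal axis) and of experiment 2 (vertical axis), both on the log2 scale with 16 added, for the 5 tested members (red) and all 20680 tested probe sets (grey), with dotted lines at a 2-fold change. Nppa lies past 2-fold in both experiments at 3.0 and 2.25, Nppb in experiment 1 only, Npr3 in experiment 2 only, and Npr1 and Npr2 lie near the centre.

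Nppa and Nppb are direct neighbours on mouse chromosome 4 and are transcribed in the same direction. Their upstream sequences are shown because these are the 2 members that rose, with the 250 bases before the annotated RefSeq start of each gene, 5′ to 3′ on the plus strand of GRCm38.p6. Capitals mark matches on either strand to 5 motifs, and no 2 matches overlap. The motif of GATA factors was read as the letters GATA after A or T and before A or G, the M-CAT element of TEAD factors as CATTCC, the T-box as TCACACC, the NKX2-5 element as TNAAGTG and the TATA box as TATAAA.
Nppa (chr4:148000472-148000721): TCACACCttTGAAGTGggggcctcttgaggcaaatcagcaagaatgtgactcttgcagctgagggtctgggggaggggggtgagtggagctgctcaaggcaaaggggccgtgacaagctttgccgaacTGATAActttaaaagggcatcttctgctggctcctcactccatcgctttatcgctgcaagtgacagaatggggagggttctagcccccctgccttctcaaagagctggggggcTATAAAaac
Nppb (chr4:147985650-147985899): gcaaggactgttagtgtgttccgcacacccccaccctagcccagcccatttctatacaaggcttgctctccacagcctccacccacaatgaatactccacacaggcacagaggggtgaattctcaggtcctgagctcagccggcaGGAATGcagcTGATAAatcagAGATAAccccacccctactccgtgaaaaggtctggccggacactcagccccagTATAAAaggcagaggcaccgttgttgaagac
The Nppa sequence holds 1 GATA match, at bases -122 to -117 from the start, and the Nppb sequence holds 2, at -95 to -90 and -84 to -79. Of 32851 promoter sequences of the same length 26.5% hold a GATA match and 6.4% hold 2 or more, and among the 7 member promoters only those of Nppa and Nppb hold any. The M-CAT match stands in Nppb alone of the 7 (12.6% of all promoters), the T-box and NKX2-5 matches in Nppa alone (3.33% and 10.1%), and a TATA match in Nppa, Nppb and Nppc (12.4%). The promoters of Npr1, Npr2, Npr3 and Corin held none of these letters in this window. A match is a run of letters and not a measured site.

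Of the 3 protein-coding genes annotated on either side of this pair, 5 have a named probe set here, and none passed the thresholds. On the Nppb side, 2510039O18Rik measured 1292.3 and 1298.4 in the Cyc pools, against 804.3 and 827.4 in the Wt pools, a log2 difference of 0.66 (standard error 0.22, limma, adjusted p = 1), and Plod1, a collagen lysyl hydroxylase, had a difference of 0.46 (standard error 0.27). Mfn2, a protein of mitochondrial fusion, was at 0.45 (standard error 0.30). For these 3 genes the higher Wt pool lay below the lower Cyc pool, as for 15.1% of all tested probe sets. On the Nppa side, Clcn6, a chloride transporter of endosomes, was at -0.28 (standard error 0.37) and Agtrap, which binds an angiotensin receptor, at 0.02 (standard error 0.24), with overlapping pools.

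**Figure D3:**
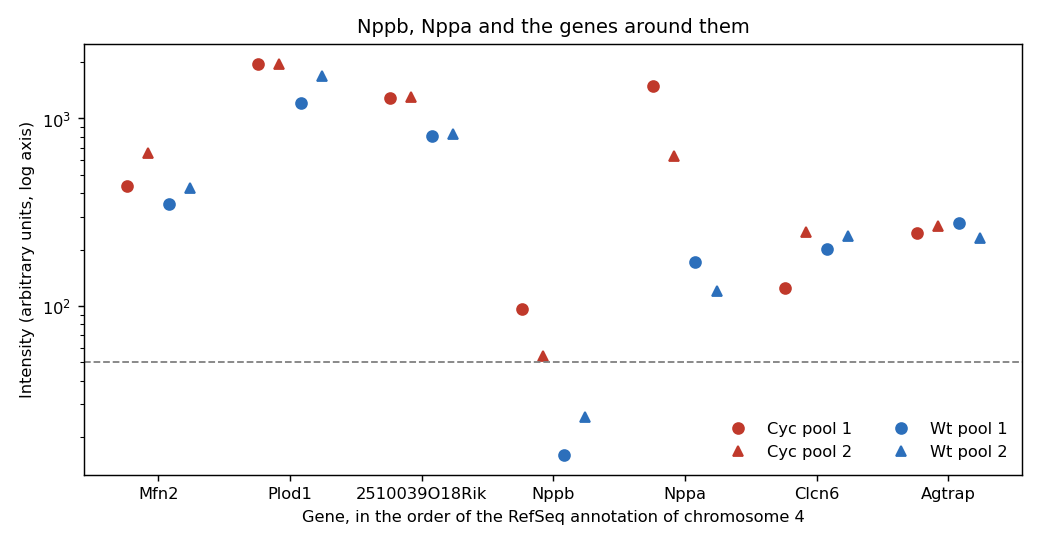
Intensity (log axis, arbitrary units) in each pool of Nppb, Nppa and 5 neighbouring genes in the order in which they lie on chromosome 4, Cyc red and Wt blue, circles for pool 1, triangles for pool 2 and a dashed line at 50. The Cyc and Wt pools stand farthest apart at Nppa (627.7 and more in Cyc, 171.5 and less in Wt) and lie close together or mixed at Clcn6 and Agtrap.

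None of the 3 receptors passed the thresholds. Npr1, the cyclase receptor of the atrial and brain peptides, measured 172.2 and 182.1 in the Cyc pools, against 180.6 and 189.1 in the Wt pools (probe set 1449160_at). The genotypes overlapped, with means of 177 ± 7.01 in Cyc and 185 ± 5.99 in Wt cells (SD, n = 2 pools each), and the log2 difference was -0.06 (95% confidence interval -0.64 to 0.53, limma, adjusted p = 1). A 2-fold change in either direction lies outside this interval.

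Npr2, the cyclase receptor of C-type natriuretic peptide, measured 452.9 and 503.1 in the Cyc pools, against 571.8 and 669.6 in the Wt pools (probe set 1427191_at). Both Cyc pools lay below both Wt pools, as in 8.23% of all tested probe sets, and the Cyc pool was the dimmer one in each experiment, with log2 differences of -0.33 and -0.40. The fitted difference of -0.36 had a standard error of 0.24 and a 95% confidence interval from -0.98 to 0.26, which includes 0 (limma, adjusted p = 1).

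Npr3, the clearance receptor, was read at 44.8 and 133.6 in the Cyc pools, against 40.6 and 54.1 in the Wt pools by probe set 1435184_at. Only Cyc pool 2 stood clear of the others, and Cyc pool 1 lay within the range of the Wt pools. The log2 difference was 0.60 with a standard error of 0.49 and a 95% confidence interval from -0.68 to 1.88 (limma, adjusted p = 1), made up of 0.10 in experiment 1 and 1.09 in experiment 2. The sign and the call rested on the Cyc pools, as the difference was -0.05 without Cyc pool 2 and 1.25, past the thresholds, without Cyc pool 1. In experiment 2 a difference of at least 2-fold in this direction was seen in 3.26% of all tested probe sets, against 0.885% in experiment 1. The other 2 probe sets for Npr3 lay between 4.4 and 16 in all pools, so the reading for this gene rests on a single probe set.

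Corin was near background in every pool, at 9.0 and 41.4 in the Cyc pools, against 9.9 and 9.2 in the Wt pools (probe set 1419017_at). Its brightest value again came from Cyc pool 2 and lay below 50. At a limit of detection of 25 in place of 50 Corin would count as read in that pool.

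The genes whose values over the 4 pools ran most like those of a member were sought among tested probe sets with 1 gene symbol, as the smallest Euclidean distance between log2 values centred on their own mean. With 4 arrays such a likeness only describes these pools. For Nppa they were Eln, the gene of elastin (distance 0.79), Serf1 (1.0) and Colec11, a collectin of innate immunity (1.04), and no tested probe set lay within 0.5. Eln measured 75.1 and 56.1 in the Cyc pools, against 4.9 and -16 in the Wt pools, and Colec11 measured 389.2 and 282.7 in Cyc, against 119.4 and 58.9 in Wt. For Nppb they were Exoc3l4 (distance 0.15), Inhbb, an inhibin and activin subunit (0.24), and Adamts4, an aggrecan-cleaving protease (0.36), and 13 probe sets lay within 0.5. Inhbb, for example, was at 369.5 and 255.0 in Cyc, against 121.9 and 154.2 in Wt cells. For Npr3 they were Cyp7b1 (distance 0.06), Mark1 (0.13) and H6pd (0.13), with 384 probe sets within 0.5, so that its pattern was a common one on these arrays.

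Genes that process, clear or transmit the peptide signal were described from lists, each gene at its brightest probe set. Of 5 measured genes of processing and clearance, Mme was lower and 4 did not pass. Mme, neprilysin, the membrane peptidase that degrades natriuretic peptides, measured 23.6 and 18.8 in the Cyc pools, against 109.3 and 84.6 in the Wt pools. Mme was thus tested only through its Wt pools, which fixed the separation of the genotypes. The intensity was at least 1.92-fold lower in Cyc cells, a bound under the 2-fold threshold, with a fitted log2 difference of -1.60 and a standard error of 0.25 (limma, adjusted p = 1). With 1 pool left out the difference lay between -1.76 and -1.44. In the lower direction 0.116% of all tested probe sets passed. Furin, a convertase of the brain and C-type precursors, had a difference of -0.02 (standard error 0.29), and Pcsk6, a convertase that activates Corin, of -0.20 (0.27).

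The median log2 difference of the processing and clearance list was -0.02, with -0.55 in experiment 1 and 0.15 in experiment 2, against -0.02, -0.10 and 0.06 over all tested probe sets. Of 14 measured genes of the cyclic GMP pathway, 12 were tested and none passed. Their median was 0.23, with -0.14 and 0.58 in the 2 experiments. The brightest was Pde2a, a phosphodiesterase that cyclic GMP activates, with a difference of -0.25 (standard error 0.23), followed by Vasp, an actin regulator phosphorylated by the cyclic GMP-dependent kinase, with -0.06 (0.26). Rgs2, a regulator of Gαq signaling that this kinase also phosphorylates, measured 642.8 and 437.6 in the Cyc pools, against 308.3 and 283.6 in the Wt pools. Its pools did not overlap, a separation in this direction that 15.1% of all tested probe sets showed. Its difference of 0.81 (standard error 0.28) stayed under 2-fold. Prkg1, the kinase itself, was at 0.38 (standard error 0.58), and Pde5a, which breaks down cyclic GMP, at 0.22 (0.45).

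Of 16 measured transcriptional regulators of Nppa and Nppb, 12 were tested and none passed. Their median was -0.12, with -0.24 and 0.03 in the 2 experiments. Gata4 measured 27.4 and 29.3 in the Cyc pools, against 21.6 and 38.5 in the Wt pools. Nkx2-5 was at 18.9 or less and Tbx5 below 0 in every pool, so these cardiac factors were not read above background in either genotype. Gata6 stood above 50 throughout, with 303.7 and 452.4 in Cyc, against 348.1 and 362.0 in Wt cells, with a difference of 0.06 (standard error 0.29). The brightest were the MADS-box factors Mef2a and Mef2c, with -0.17 (standard error 0.37) and -0.05 (0.57). Tbx20, a T-box factor of heart development, was bright in Cyc pool 2 alone, at 1366.6 against 243.2 in Cyc pool 1 and 177.0 and 147.2 in the Wt pools. Its difference of 1.75 (standard error 0.82) passed only with the experiment as a block, where 0.924% of all tested probe sets passed in this direction.

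Of 7 measured genes of myocardial stress, 6 were tested, Ankrd1 and Ctgf rose and 4 did not pass. In the higher direction 0.735% of all tested probe sets passed. The median of the list was 0.85, with 0.71 and 1.29 in the 2 experiments. As the study already names Ankrd1 and Ctgf from these arrays, their direction here adds no separate evidence. Ankrd1, a stress-responsive protein of muscle, measured 202.7 and 189.8 in the Cyc pools, against 46.6 and 43.1 in the Wt pools. Tested through its Cyc pools alone, it was at least 3.92-fold higher, and unlike Nppa it was nearly even between the Cyc pools. Ctgf, a secreted matricellular protein, rose by 1.70 (log2, standard error 0.28), at 6071.5 and 7503.9 in Cyc, against 2388.7 and 1776.2 in Wt cells. With 1 pool left out the difference lay between 1.76 and 1.85 for Ankrd1 and between 1.49 and 1.92 for Ctgf. Myh7, the slow myosin heavy chain that returns in the stressed ventricle, was at 35.2 and 61.4 in the Cyc pools, against -0.4 and -6.8 in the Wt pools and was not tested. Acta1, skeletal α-actin, measured 93.2 and 91.8 in Cyc and 45.7 and 46.9 in Wt cells. Like Ankrd1 it was tested through its Cyc pools alone, which fixed the separation of the genotypes. Acta1 was at least 1.85-fold higher, with a fitted difference of 0.80 (standard error 0.22). Fhl1, a bright LIM protein of muscle, had a difference of 0.04 (standard error 0.24).

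**Figure D4:**
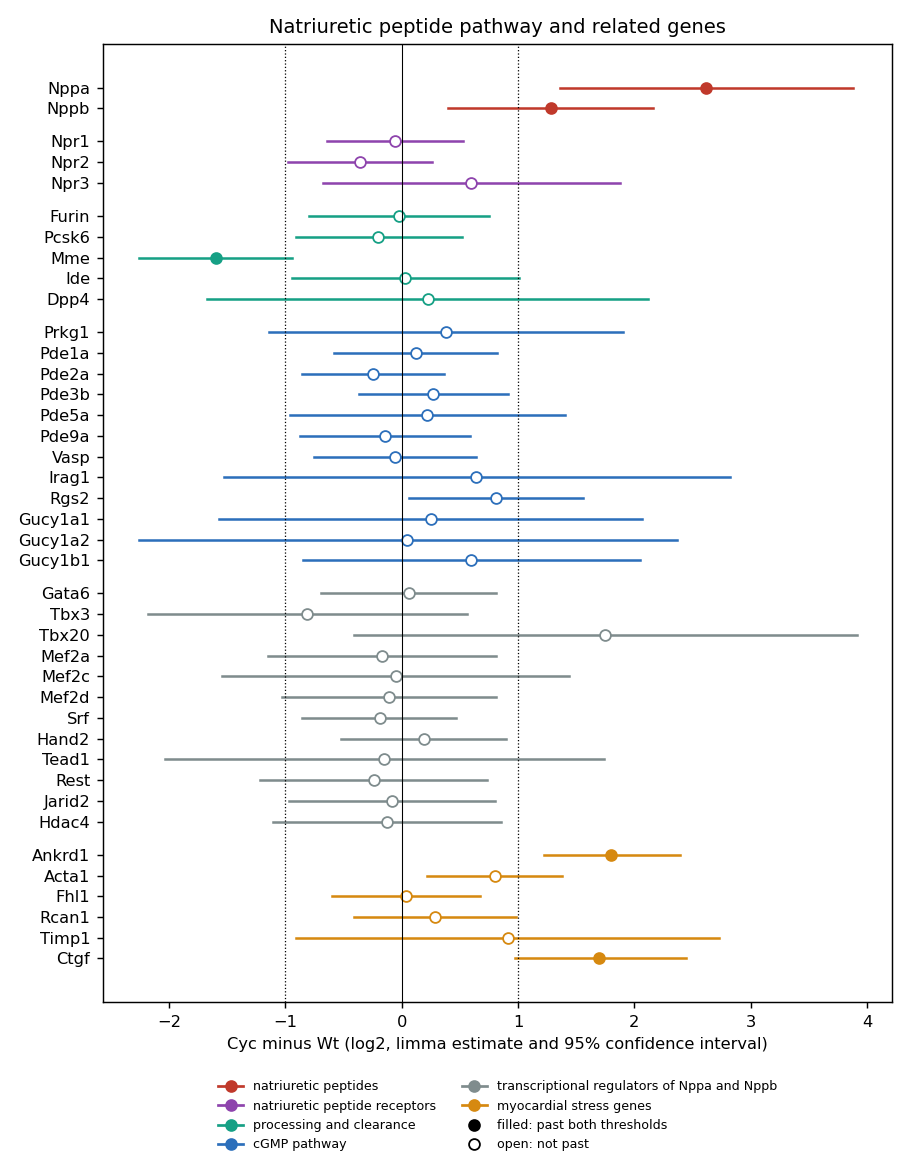
Fitted log2 differences between Cyc and Wt cells (points) with 95% confidence intervals (lines, limma) for the tested genes of the natriuretic peptide system and of 4 related lists, coloured by list. Filled points, which passed both thresholds, are Nppa, Nppb, Ankrd1 and Ctgf on the higher side and Mme on the lower side, and dotted lines mark a 2-fold change.

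Nppa and Nppb are made mainly by cardiomyocytes, so the levels of cardiomyocyte markers are given beside them. In pooled cells a larger share of cells of a type and more RNA per cell cannot be told apart. All 20 markers of the list were measured and 17 were tested. At the brightest probe set of each, 2 were lower (0.116% of all tested probe sets) and none was higher, with a median of -0.38. Myl3 passed in the lower direction at a probe set other than its brightest. None of the markers was at 0 in all pools, and 2, Actn2 and Ryr2, were under 50 in all. The summed intensity of the list was 5151 and 6306 in the Cyc pools and 7008 and 5784 in the Wt pools. Without Atp2a2, the brightest, which other cells also express, it was 3138 and 3232 in Cyc and 4712 and 3249 in Wt. That sum still held Casq2 and Pln, which were brightest in Cyc pool 2. Casq2 measured 270.4 and 777.4 in the Cyc pools, against 184.2 and 353.3 in the Wt pools. Pln measured 131.0 and 539.0 in Cyc, against 387.7 and 418.8 in Wt. The part of other cells in these sums was not tested. Single markers differed, as both Cyc pools lay below both Wt pools for 7 of the 17 tested (8.23% of all tested probe sets) and above them for 2, Mybpc3 and Hrc (15.1%). Of the 7, Cox7a1 was tested only through its Wt pools, which fixed its separation. It measured 48.3 and 44.7 in Cyc, against 120.2 and 73.6 in Wt. Mybpc3, a protein of the thick filament, measured 113.9 and 74.5 in the Cyc pools, against 50.8 and 28.6 in the Wt pools. Its difference was 0.99 (standard error 0.34), and like Nppa it was brighter in Cyc pool 1. Hrc measured 59.5 and 88.0 in Cyc, against 55.6 and 52.8 in Wt, and was brighter in Cyc pool 2. Myl2, a ventricular myosin light chain, fell by 1.15 (log2, standard error 0.31) and Mb, the oxygen store of muscle, by 1.11 (log2, standard error 0.41). Without Wt pool 1 neither passed, at -0.86 and -0.59, and Myl2 at -0.97 did not without Cyc pool 1 nor Mb at -1.07 without Cyc pool 2. The study already names Mb as lower from these arrays, so its direction here adds no separate evidence. Myh6, the gene whose promoter drives the transgenes, measured 589.8 and 183.8 in the Cyc pools, against 480.4 and 227.0 in the Wt pools, brighter in pool 1 of each genotype.

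Nppa is abundant in the atria of the healthy adult heart. Of 8 atrial markers 4 were tested and none passed, with a median of 0.17. Bmp10, an atrial growth factor, was below 0 in all pools, and Sln, the atrial regulator of the calcium pump, was at 21.4 and 7.7 in the Cyc pools, against 19.2 and 23.6 in the Wt pools. Myl4, an atrial light chain, was at 205.0 and 79.7 in Cyc, against 86.8 and 68.2 in Wt cells. Its difference was 0.64 (standard error 0.46). Myl7, another atrial light chain, measured 27.9 and 56.7 in the Cyc pools, against 56.1 and 32.2 in the Wt pools. Unlike Nppa and Myl4, Myl7 was dimmer in Cyc pool 1 than in Cyc pool 2 or Wt pool 1, and its fitted difference was -0.06. Kcna5, a potassium channel and the brightest of the list, was at 0.05 (standard error 0.32). Without Kcna5 the summed intensity of this list was 420 and 254 in the Cyc pools and 274 and 235 in the Wt pools.

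Of 7 probe sets named for Gnaq, the gene of the Gαq transgene, 1 was higher in Cyc cells past the thresholds and 6 did not pass, nor did Ccnt1, the gene of the other transgene. Of all tested probe sets 0.735% passed in this direction. Probe set 1450115_at measured 723.6 and 492.3 in the Cyc pools, against 22.7 and 4.1 in the Wt pools. This probe set was tested through its Cyc pools alone, which fixed the separation of the genotypes. The intensity was at least 11.9-fold higher in Cyc cells. Of the Cyc pools, pool 1 was the brighter one, as for Nppa and Nppb. The study also reports the change at this probe set. From its other Gnaq probe sets, which did not differ, it assumed no major difference for the transcript as a whole. The part of RNA from cardiomyocytes in the changes of Nppa and Nppb was not tested.

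Markers of other cells differed between pools. All 8 endothelial and all 8 fibroblast markers were read at 50 or more in every pool. Endothelial markers summed to 49301 and 53325 in the Cyc pools and to 51661 and 53304 in the Wt pools, with no gene past the thresholds and a median of -0.15. Fibroblast markers summed to 38741 and 39892 in Cyc and to 39522 and 24664 in Wt cells, with a median of 0.54. Col1a2 passed in the higher direction at a probe set other than its brightest. At the brightest probe set of each gene 2 were higher, Col1a1 and Pdgfrl (0.735% of all tested probe sets). Neither call survived the omission of every pool in turn, as Col1a1 was at 0.68 without Cyc pool 2, 1.35 without Wt pool 1 and 0.97 without Wt pool 2, and Pdgfrl at 0.90 without Wt pool 2. Cyc pool 2, in which Npr3 was bright, also stood above the other pools in smooth muscle and pericyte genes (23927, against 12626 in Cyc pool 1 and 10673 and 15096 in the Wt pools), leukocyte genes (1569, against 492, 416 and 365), mesothelial genes (2053, against 597, 1132 and 682) and airway genes (17867, against 274, 3075 and 119). Of these lists, Kcnj8 among the smooth muscle and pericyte genes and Tyrobp and Itgb2 among the leukocyte genes passed in the higher direction, and no mesothelial or airway gene passed. These 3 calls rested on single pools, as Kcnj8 was at 0.70 without Cyc pool 1 and Tyrobp and Itgb2 at 0.79 and 0.81 without Cyc pool 2. Tyrobp and Itgb2 were also tested through their Cyc pools alone, which fixed the separation of the genotypes. Tyrobp was at least 2.34-fold higher and Itgb2 at least 1.96-fold, a bound under the 2-fold threshold. Endocardial markers, listed because Npr3 is a gene of the endocardium, summed to 10646 and 12401 in the Cyc pools and to 9913 and 9894 in the Wt pools. Of the 6 tested, Cytl1 was higher, with a difference of 1.26 (standard error 0.25), or 1.11 and no longer past the thresholds without Wt pool 2, and the median was 0.40. The part of these cells in the values of Npr3 was not tested.

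**Figure D5:**
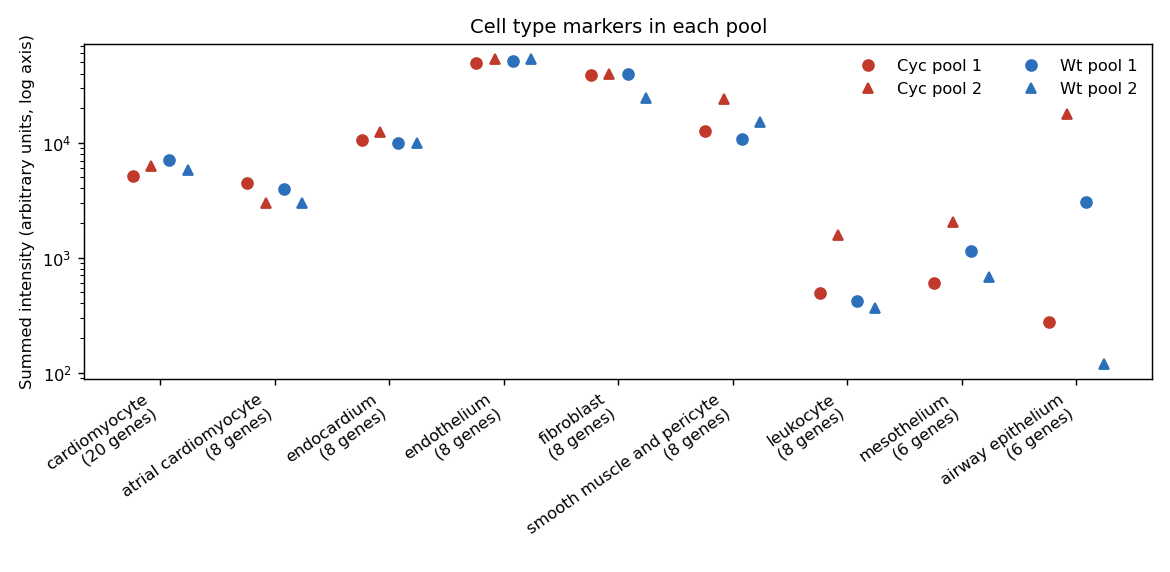
Summed intensity (log axis, arbitrary units) of 9 lists of cell type markers in each pool, Cyc red and Wt blue, circles for pool 1 and triangles for pool 2. Cyc pool 2 is highest for smooth muscle, leukocyte, mesothelial and airway markers (17867 for the airway list against 274 in Cyc pool 1). Cardiomyocyte markers lie between 5151 and 7008 in all pools, a sum that holds Atp2a2, which other cells also express. Without Atp2a2 (not plotted) the sum was 3138 and 3232 in Cyc pools 1 and 2 and 4712 and 3249 in Wt pools 1 and 2.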

How the data were processed

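RNA (250 ng per pool) of 4 pools of Sca-1 cells was hybridised to Affymetrix Mouse 430 2.0 arrays. Each deposited value is a normalized intensity of 1 probe set on a linear scale, made by the authors in Resolver, and 5784 to 7231 values per array lie below 0. How background was corrected and probes were summarised is not given in the sources used here. Values below 0 were raised to 0, 16 was added and log2 taken. Array medians then differed by at most 0.473, and no further normalization was applied. The 20680 probe sets read at 50 or more on at least 2 arrays entered limma 3.58.1 (R 4.3.3, two-sided, 2 residual and 2.68 prior degrees of freedom), with Benjamini-Hochberg adjustment across them all. A probe set passed at 2-fold with an unadjusted p under 0.05, the thresholds of the study, whose Resolver error model was not run. Where both pools of a genotype lay under 50, the fold change is a lower bound, the geometric mean of the other genotype divided by 50. The extraction notes give 2 independent experiments, and p-values measure only the spread between these pools.

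Same-numbered arrays deviated together from their group means (correlation 0.447 across tested probe sets) and share the added control transcripts, but the labels do not state a pairing, so a fit blocked on the replicate number is an alternative. Other alternatives were pseudocounts of 1 and 50, filtering at 100 or not at all, quantile or median scaling, an intensity trend, an ordinary equal-variance t-test (Student's test stands in the study's general statistics, not in its array methods), omission of each array, and averaging the probe sets of a listed gene. The code was tested on simulated data. Members and lists were chosen with earlier results of these data known. Named were all members, the genes of each list past the thresholds, the 2 brightest of each list (those of the other marker lists enter only through their sums), and the 3 genes most like each member that spans at least 1 on the log2 scale. Rgs2, Prkg1, Pde5a, Gata4, Gata6, Nkx2-5, Tbx5, Tbx20, Myh7, Acta1, Actn2, Ryr2, Mybpc3, Hrc, Cox7a1, Myl3, Casq2, Pln, Myh6, Bmp10, Sln, Myl7, Col1a2 and the neighbours of Nppa were named, and the motifs chosen, after values or sequences had been seen. Symbols come from GEO's platform annotation, updated through RefSeq (GRCm38.p6), the source of the promoters, where all 7 members matched.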

Additional observations from a re-analysis of the deposited data

How the results depend on the processing

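The members' directions held in every alternative that could be run, except for Npr3. Its log2 difference of 0.60 ranged from -0.05 to 1.25 when 1 pool was left out, turning sign without Cyc pool 2 and passing the thresholds without Cyc pool 1. Nppa ranged from 2.01 to 3.23, Nppb from 0.94 to 1.62, Npr1 from -0.09 to -0.02 and Npr2 from -0.47 to -0.25, and the number of members higher in Cyc cells from 1 to 2 (without Cyc pool 1 they were Nppa and Npr3). Nppb fell below 2-fold with a pseudocount of 50, at 0.80, and neither Nppb nor Npr3 could be tested with a filter of 100, so that 1 member was higher in each case. With an ordinary equal-variance t-test on the same values none was, 0 members, at differences of 2.62 for Nppa and 1.28 for Nppb. Over all tested probe sets, 152 were higher and 24 lower in Cyc cells. Higher counts were 93 with a pseudocount of 50, 47 with the t-test and 117 to 581 without 1 pool. Lower counts were 46 with a pseudocount of 1, 37 with no filter, 7 with the t-test and 29 to 1050 without 1 pool, the extremes being 581 without Cyc pool 1 and 1050 without Cyc pool 2. With the replicate block 191 were higher and 47 lower, the calls on the members stayed as they were (Nppa 2.62, Nppb 1.28), and Tbx20 became 1 call among the regulators. The pairing by number is a hint from the arrays, not stated by the labels. A gene with an intensity under 50 in both genotypes cannot be compared, which limits Nppc and Corin.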
